A study of Mus musculus with 48 samples.

Results

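The response of NMM cells, a mouse melanoma line carrying mutated NRAS, to tumour necrosis factor (TNF, labelled TNFa) was read from bulk RNA after 6 h of continuous stimulation in vitro, and the interferon genes were examined in it. The 6 libraries used, of 48 in the series, were chosen by their labels. The tested libraries were given TNF alone at 0.1, 1 or 10 ng/ml, 1 library per dose. The controls were unstimulated cells, cells given IL-2 at 6000 U/ml and cells given lymphotoxin A1 B2 at 2 ng/ml, 1 library each. TNF at 2, 12 and 24 h, IFNα1 at 5000 U/ml and IFNγ at 0.01, 1 and 100 ng/ml, each with the controls of the same duration, were used beside them. The doses come from the sample titles, because a separate field of the labels gives 1 for the 0.1 ng/ml TNF libraries. The 3 TNF libraries differ in dose and the 3 controls in stimulus, so that each stands in for a replicate of its group. Nothing in the labels tells if the cells of each library were cultured apart, so that p-values measure the spread between these libraries. That spread includes the differences between doses and between control stimuli, and the rest of it may be technical.

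TNF binds its receptors and frees NF-κB, a family of transcription factors held in the cytoplasm by IκB proteins. Interferons act through their own receptors, JAK kinases and STAT factors. STAT factors bind, with IRF9, the interferon-stimulated response element (ISRE) and, as dimers of their own, the interferon-γ activated sequence (GAS). In macrophages TNF is known to induce the factor IRF1 and small amounts of IFN-β, which then acts back on the cell through the type I receptor. In tumour cells the interferon genes are best known for antiviral defence, for the chemokines that attract T cells and for the presentation of antigen on MHC class I.

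Libraries held 7611698 to 9558085 counts in the TNF group and 7136822 to 7749222 in the controls, and 1 count was worth 0.104 to 0.134 CPM, the count scaled to library size. Mitochondrial genes took 1.09 to 1.15% of counts in the TNF libraries and 1.15 to 1.21% in the controls. Of 10 melanocyte lineage markers, 7 stayed under 1 CPM in all 6 libraries. Sox10, Tyrp1, Dct and Mlana had 0 counts, so that several markers of the labelled cell type were not detected. Mitf and Gpnmb, of the same list, reached the filter on low counts described below in all 6 libraries. The list summed to 384 to 441.2 CPM in the TNF libraries and 450 to 489 CPM in the controls, and Gpnmb, its called member, fell, a call lost without any of 4 of the 6 libraries. Of 10 T and NK cell markers, 9 had 0 counts. Macrophage and dendritic cell markers summed to 41.9 to 47.1 CPM in the TNF libraries and 49.4 to 53.0 CPM in the controls. Adgre1, Itgam and Siglech had 0 counts, and Cd14 fell, a call lost without any of 5 of the libraries. Fibroblast and endothelial markers summed to 232 to 301 CPM in the TNF libraries and 284 to 326 CPM in the controls, with 6 of 10 under 1 CPM and none called. In bulk RNA, fewer cells of a type and less RNA per cell cannot be told apart. The part of these differences in the interferon results was not tested. The controls were not alike in the interferon genes: the lymphotoxin library was the lowest of the 3 for 156 of 193 members tested, and the IL-2 library the highest for 129. Over all 11456 genes tested, the lymphotoxin library was the lowest for 3540. The list counts at 6 h are therefore given with and without it. They are given over the members that reached the filter on low counts (a minimum count of 10 at the median library size) in all 6 libraries, and over all members tested where that differs. Counts without the lymphotoxin library, and the calls over the doses, were made over all members tested only.

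Promoters of 4 genes the results turn on are shown for the short sequences that the factors named above are known to bind. The windows are the 250 bases before the RefSeq start site on build GRCm38.p6, written 5′ to 3′ on the gene's strand. Ifit3 lies at chr19:34583279-34583528 on the plus strand, Gbp5 at chr3:142496684-142496933 on the plus strand, Cxcl10 at chr5:92348890-92349139 on the minus strand and Ifngr2 at chr16:91546809-91547058 on the plus strand. Capitals mark matches, on either strand, to an ISRE-like core, GAAA repeated with 2 bases between the copies, and to a κB-like core, GGGA and TTCC with 2 bases between them.
Ifit3: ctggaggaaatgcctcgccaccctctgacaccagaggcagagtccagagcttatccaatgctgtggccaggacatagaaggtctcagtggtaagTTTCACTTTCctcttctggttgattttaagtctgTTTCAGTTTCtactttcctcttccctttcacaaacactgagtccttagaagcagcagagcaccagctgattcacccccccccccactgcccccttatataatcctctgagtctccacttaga
Gbp5: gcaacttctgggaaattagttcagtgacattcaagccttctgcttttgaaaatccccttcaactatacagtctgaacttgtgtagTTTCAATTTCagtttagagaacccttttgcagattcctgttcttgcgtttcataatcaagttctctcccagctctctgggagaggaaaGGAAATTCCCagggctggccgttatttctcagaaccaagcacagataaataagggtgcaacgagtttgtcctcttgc
Cxcl10: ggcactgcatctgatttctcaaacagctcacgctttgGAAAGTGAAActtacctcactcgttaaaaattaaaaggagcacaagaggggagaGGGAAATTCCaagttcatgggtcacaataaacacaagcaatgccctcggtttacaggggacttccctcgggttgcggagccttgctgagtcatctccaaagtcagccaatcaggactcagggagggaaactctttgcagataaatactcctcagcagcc
Ifngr2: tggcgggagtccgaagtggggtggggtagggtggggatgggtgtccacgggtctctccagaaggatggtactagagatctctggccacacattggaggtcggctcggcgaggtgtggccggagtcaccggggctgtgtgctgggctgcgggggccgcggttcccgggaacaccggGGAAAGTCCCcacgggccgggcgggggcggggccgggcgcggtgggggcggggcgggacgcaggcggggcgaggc
Ifit3, an antiviral effector, holds 2 ISRE-like cores, which begin 156 and 122 bases before the start site. Gbp5, a guanylate-binding protein, holds an ISRE-like core 165 bases and a κB-like core 77 bases before it. Cxcl10, a chemokine for T cells, holds both as well, at 213 and 159 bases. Ifngr2, a chain of the IFNγ receptor, holds a κB-like core at 75 bases and no ISRE-like core in this window. Gbp5 also holds 2 GAS-like cores (TTCNNNGAA), beginning 245 and 52 bases before the start site and left in lower case, and the other 3 windows hold none. No match overlaps one to another motif. The ISRE-like core was found in 61 of the 189 interferon genes that have a promoter in the table (32.3%), in 0 of 32 NF-κB targets and in 3.04% of all 27025 promoters. The κB-like core was found in 4.76% of the interferon genes, in 21.9% of the NF-κB targets and in 1.17% of all promoters, and the GAS-like core in 19% of the interferon genes, 12.5% of the NF-κB targets and 7.18% of all promoters. These matches are letters in a window and not measured sites.

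TNF raised most of the interferon genes within 6 h. The lists hold 250 genes, from ligands to effectors and antigen presentation, of which 245 are named in the table and 193 passed the filter on low counts. The filter was reached in all 6 libraries by 179 of them, and of these 141 were higher and 2 lower with TNF (edgeR quasi-likelihood test, Benjamini-Hochberg adjusted p under 0.05 over all genes). Among all 10842 genes that reached it in all 6 libraries, 9.32% were higher and 5.79% lower. The other 14 passed through the TNF libraries alone, where they had to be higher. The median log2 change of the 179 was 0.92, against -0.01 for the 10842. With the 14 included, 152 of 193 were higher and 2 lower, and 87 of them at least 2-fold higher. Over all 11456 genes tested, 9.31% were higher and 5.7% lower. With the 14 still included, all 3 TNF libraries lay above all 3 controls for 163 of the 193, against 16.3% of all genes tested. All 3 lay below the controls for 11, against 16.9%. Without the lymphotoxin control, 139 of 195 were higher and 2 lower, with a median of 0.85, while 5.82% of all genes were higher. The counts of 87, 163 and 139 were not made over the 179 alone. Of the 154 calls, 97 held whichever of the 6 libraries was left out. The count was 107 without the 1 ng/ml TNF library and 159 without the 0.1 ng/ml TNF library. An exact permutation test of 3 libraries against 3 cannot go below a p of 0.10, so that the calls rest on the spread shared across genes.

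**Figure D1:**
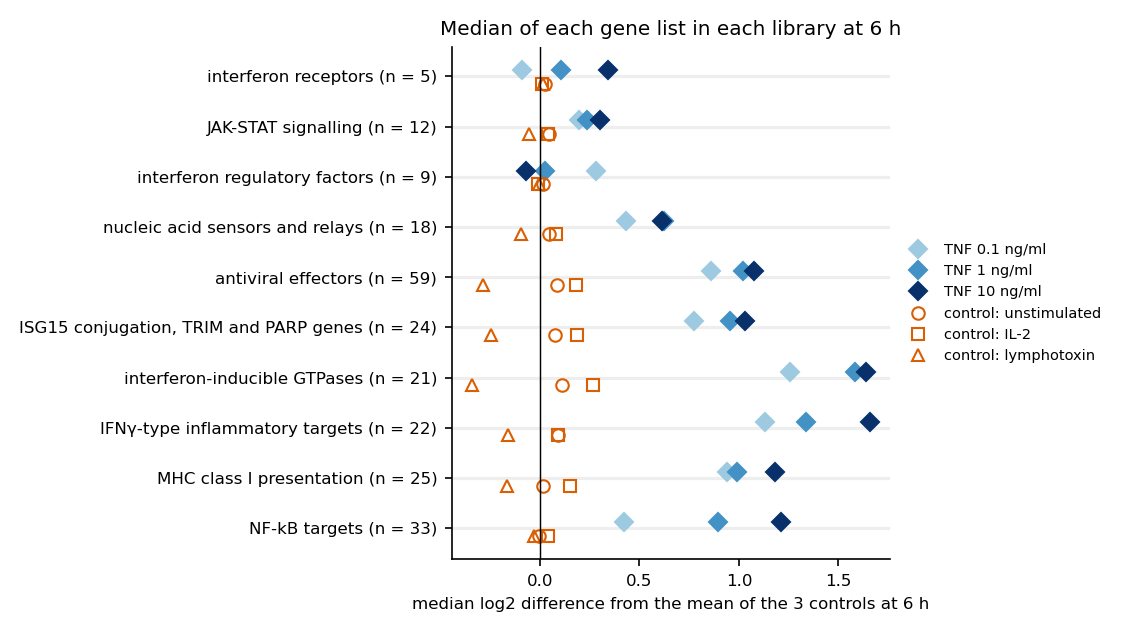
Median log2 difference from the mean of the 3 controls at 6 h (horizontal axis) for the tested members of each gene list (rows), with 1 diamond per TNF library and 1 open symbol per control library. For the lists from sensors to MHC class I every TNF library lies above every control, and for the NF-κB targets the median was 0.42 at 0.1 ng/ml and 1.21 at 10 ng/ml.

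The interferon ligands themselves were scarcely detected. None of the 21 ligand genes passed the filter, and 16 of them had 0 counts in all 6 libraries. A count of 0 allows up to 3 counts, or 0.312 to 0.403 CPM in a library, counting error only. Ifnb1, which encodes IFN-β, had 6, 8 and 10 counts at 0.1, 1 and 10 ng/ml TNF, against 1, 6 and 1 in the unstimulated, IL-2 and lymphotoxin controls. The 0.1 ng/ml library and the IL-2 control were level in counts, so that the groups were not separated. At 2 h the same gene had 13, 31 and 26 counts with TNF and 3, 5 and 5 in the controls, with every TNF library above every control. At 12 h it stood at 3.40, 4.26 and 9.60 CPM with TNF and 1.11, 1.24 and 1.32 CPM in the controls. At 24 h it stood at 0.93, 2.75 and 7.61 CPM with TNF and 0.77, 0.87 and 0.58 CPM in the controls. At each dose, the 6 h level of Ifnb1 was the lowest of the 4 durations, without a test. The controls were also lowest at 6 h, with 8 counts in sum against 13, 24 and 18 at 2, 12 and 24 h. The difference between its changes at 6 h and at 2 h was -0.76 ± 0.90 (log2, SE; edgeR adjusted p = 0.787). Ifna4, a type I ligand, summed to 7 counts with TNF and 6 in the controls, and Ifng, the IFNγ gene, had 0 counts.

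None of the 5 receptor chains tested was called in the comparison of 3 against 3. Ifngr2, the second chain of the IFNγ receptor, had 40.1, 57.7 and 79.5 CPM at 0.1, 1 and 10 ng/ml TNF, against 33.9, 28.1 and 30.7 CPM in the unstimulated, IL-2 and lymphotoxin controls. The groups did not overlap and the level rose at each dose, and the difference between doses entered the spread of the test (log2 change 0.94 ± 0.29, edgeR adjusted p = 0.116). A slope over the 3 TNF doses, fitted beside the step from control to TNF and added after the data were seen, was 0.49 ± 0.06 per 10-fold dose (edgeR adjusted p = 1.08e-05). That call was lost without the 0.1 ng/ml library. Ifnar1, a chain of the type I receptor, stood at 100, 104 and 122 CPM with TNF and at 91.9, 97.1 and 100 CPM in the controls, and the groups overlapped. Ifngr1 had 20.7, 28.4 and 29.1 CPM with TNF and 20.3, 23.6 and 22.2 CPM in the controls, also overlapping. Ifnar2 and Il10rb, chains of the type I and type III receptors, had log2 changes of 0.01 ± 0.10 and -0.21 ± 0.10, with edgeR adjusted p of 0.948 and 0.168. A slope over a dose score of 0 for controls to 3 for 10 ng/ml called Ifngr2, Ifnar1 and Ifngr1 higher, at 0.46, 0.10 and 0.15 log2 per step.

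Among 12 genes of JAK-STAT signalling, 6 were higher and none lower, and 4 were higher without the lymphotoxin control. Jak2, a kinase of the IFNγ receptor, had 103, 106 and 115 CPM at 0.1, 1 and 10 ng/ml TNF, against 83.7, 79.1 and 78.9 CPM in the controls. All TNF libraries lay above all controls (log2 change 0.43 ± 0.06, edgeR adjusted p = 2.56e-04), and the call held whichever library was left out. Usp18, which takes ISG15 off proteins and dampens type I signalling, had 585, 645 and 712 CPM with TNF and 344, 377 and 280 CPM in the controls. Its call (0.96 ± 0.14) was lost without the 1 or the 10 ng/ml library. Socs1, a feedback inhibitor, stood at 8.53, 8.83 and 7.28 CPM with TNF and at 7.05, 6.04 and 8.24 CPM in the controls, which overlap.

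Of 9 interferon regulatory factors tested, Irf1, Irf2 and Irf5 rose, and these calls held whichever library was left out. Without the lymphotoxin control 4 were higher. Irf5, a factor of inflammatory gene induction, had 9.57, 16 and 21.9 CPM with TNF, against 2.97, 3.36 and 2.62 CPM in the controls. It rose at each dose above a control level that hardly varied (log2 change 2.42 ± 0.37, edgeR adjusted p = 0.00705). Irf1, a factor induced by both TNF and IFNγ, had 57.3, 73.2 and 88.5 CPM with TNF, against 28.6, 30.2 and 22.6 CPM in the controls, without overlap (1.44 ± 0.20, edgeR adjusted p = 0.00889). Irf2, which shares binding sites with IRF1, rose by 0.57 ± 0.08. Irf7, the factor that amplifies type I interferon, had 369, 345 and 351 CPM with TNF and 213, 262 and 167 CPM in the controls. Its groups did not overlap, and the change was not called (0.74 ± 0.18, edgeR adjusted p = 0.0655). Irf3, which acts without being induced, had a change of -0.00 ± 0.08. Irf8 and Irf2bp2 had log2 changes of -0.43 ± 0.17 and -0.21 ± 0.08 with edgeR adjusted p of 0.116 and 0.107, and Irf2bp1 and Irf2bpl of -0.03 ± 0.09 and 0.09 ± 0.09. Batf2, a partner of IRF1, summed to 30 counts with TNF and 8 in the controls and was not tested, and Irf4 had 0 counts.

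**Figure D2:**
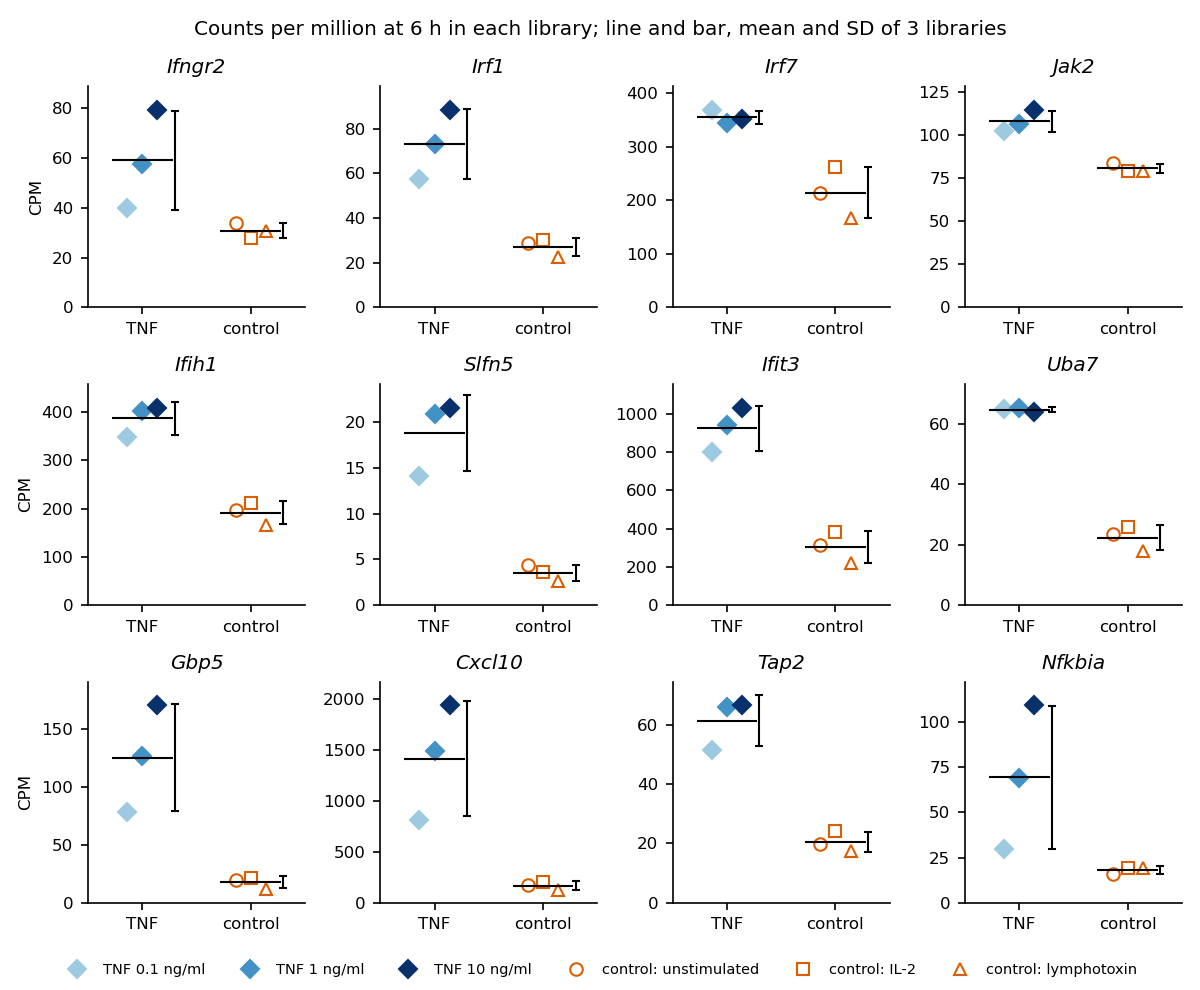
CPM at 6 h (vertical axes from 0) in each TNF library (filled diamonds, darker with dose) and each control (open symbols), with the mean as a line and the SD of 3 libraries as a bar, for 11 interferon genes and the NF-κB target Nfkbia. TNF libraries lie above controls in each panel. Uba7 is level across doses at 64.1 to 65.5 CPM, while Ifngr2 and Nfkbia rise at each dose.

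The sensors of foreign nucleic acid and their relays rose in 11 of the 16 members that reached the filter in all 6 libraries, and Tlr4, the receptor for lipopolysaccharide, fell. Over all 18 tested, 12 rose, or 10 without the lymphotoxin control. Tlr3, the endosomal sensor of double-stranded RNA, had 154, 189 and 218 CPM with TNF, against 59.8, 69.0 and 42.9 CPM in the controls. Every TNF library was above 3 controls that spread widely (log2 change 1.72 ± 0.23, edgeR adjusted p = 0.0139), and the call was lost without the unstimulated or the 1 ng/ml library. Ifih1, the cytosolic sensor MDA5, had 349, 403 and 410 CPM with TNF and 198, 212 and 165 CPM in the controls (1.02 ± 0.11, edgeR adjusted p = 0.00179). Tlr2, a receptor for bacterial lipopeptides, rose at each dose, with 12.7, 29.6 and 44.4 CPM with TNF and 1.98, 3.09 and 1.75 CPM in the controls. Its call (3.69 ± 0.74, edgeR adjusted p = 0.0443) was lost without any library but the 0.1 ng/ml one. Ikbke, a kinase that activates IRF3, rose by 2.13 ± 0.39 from few reads, 13, 21 and 24 counts with TNF against 5, 3 and 4 in the controls, and passed the filter through the TNF libraries alone. Zbp1, a sensor of Z-form nucleic acid, rose by 1.31 ± 0.23, a call lost without any of 4 libraries. Tlr4 had 40.7, 38.6 and 39 CPM with TNF and 51.6, 51.3 and 50.7 CPM in the controls, with no overlap (-0.37 ± 0.07, edgeR adjusted p = 0.00212).

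The antiviral effectors rose in 45 of the 56 members that reached the filter in all 6 libraries, with a median log2 change of 1.03, and in 47 of all 59 tested, or 48 without the lymphotoxin control. Ifitm2, a membrane protein that blocks virus entry, fell by 0.22. The Ifitm2 call was lost without any of 4 libraries. Slfn5, a Schlafen family member, had 14.1, 20.9 and 21.6 CPM with TNF, against 4.33, 3.62 and 2.62 CPM in the controls. The lowest TNF library was above the highest control, and the call held without any 1 library (2.43 ± 0.22, edgeR adjusted p = 4.18e-05). Ifit2, which binds viral RNA, had 667, 887 and 975 CPM with TNF, against 217, 234 and 150 CPM in the controls (2.08 ± 0.25, edgeR adjusted p = 0.012), a call lost without the unstimulated or the 1 ng/ml library. Ifit3 had 800, 941 and 1034 CPM with TNF and 315, 382 and 218 CPM in the controls. Its groups were far apart, with a wide range of the controls (1.61 ± 0.25, edgeR adjusted p = 0.0252), and the call was lost without the unstimulated, the 1 ng/ml or the 10 ng/ml library. Mx1, a GTPase that blocks influenza virus, rose by 2.05 ± 0.24 and Slfn2 by 2.01 ± 0.24, and both calls held without any 1 library. Ifi205, of the family of DNA-binding p200 proteins, rose by 2.42 ± 0.35, a call lost without the unstimulated, the lymphotoxin or the 1 ng/ml library. Isg15, the ubiquitin-like modifier, had 507, 512 and 531 CPM with TNF and 357, 373 and 280 CPM in the controls (0.63 ± 0.11, edgeR adjusted p = 0.014), a call lost without any of the 3 TNF libraries. Bst2, which tethers budding virus, overlapped between groups (0.19 ± 0.12), and Ifitm3 had a change of 0.11 ± 0.04 with an edgeR adjusted p of 0.10. Ifit3 and Ifit3b, the p200 genes and the Slfn genes are near copies in sequence, and how the authors counted reads shared between copies is not given.

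Of the list of ISG15 conjugation, TRIM and PARP genes, all 23 members that reached the filter in all 6 libraries rose, with a median of 0.92, as did the one other tested, Sp110. Uba7, the enzyme that activates ISG15, had 64.9, 65.5 and 64.1 CPM with TNF, against 23.5, 25.8 and 17.9 CPM in the controls. The 3 TNF libraries were all but equal across a 100-fold range of dose (1.55 ± 0.10, edgeR adjusted p = 8.65e-06). Pml, which builds nuclear bodies, had 305, 315 and 317 CPM with TNF and 205, 202 and 176 CPM in the controls (0.69 ± 0.06, edgeR adjusted p = 2.04e-05), again nearly level over the doses. Parp14, an ADP-ribosyl transferase, had 616, 874 and 968 CPM with TNF and 268, 272 and 197 CPM in the controls (1.75 ± 0.25), a call kept only when the 0.1 ng/ml library was the one left out. Sp110, a nuclear body protein, rose by 2.16 ± 0.38 and passed the filter through the TNF libraries alone. Herc6, a ligase for ISG15 in mice, rose by 1.70 ± 0.26 and Parp11 by 1.15 ± 0.18, calls lost without the unstimulated or the 1 ng/ml library, and for Parp11 also without the 10 ng/ml library. Without the lymphotoxin control, 22 of the 24 were higher.

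The 20 interferon-inducible GTPases that reached the filter in all 6 libraries rose as well, with a median of 1.53, as did the one other tested. They coat vacuoles that hold microbes. Gbp5 had 78.3, 127 and 170 CPM with TNF, against 19.9, 21.3 and 12.1 CPM in the controls, so that even the lowest dose stood well above each control (2.83 ± 0.43, edgeR adjusted p = 0.0231). Gbp4 had 46.2, 75.6 and 102 CPM with TNF and 11.6, 14.2 and 7.49 CPM in the controls (2.76 ± 0.45, edgeR adjusted p = 0.0259). Both rose at each dose, and both calls were lost without any of 4 libraries, among them each control. Gm12250, which encodes the GTPase Irgb10, had 8.27, 12.6 and 17.2 CPM with TNF and 2.72, 2.28 and 2.00 CPM in the controls (2.45 ± 0.31, edgeR adjusted p = 8.30e-04), a call held without any 1 library. Gbp2 had 310, 428 and 520 CPM with TNF and 120, 129 and 87.4 CPM in the controls (1.91 ± 0.27), a call lost without any control or the 1 ng/ml library. Gbp8, Gbp10 and Gbp11 were too low to test. Gbp10 had 40 counts in the TNF libraries and 5 in the controls, and Gbp11 had 9 counts and 0. With a floor of 3 counts over the controls the Gbp11 ratio was 2.76, and its exact 95% counting interval began at 1.82. Without the lymphotoxin control, 17 of 22 GTPases were higher. Members of the Gbp, Irgm and Tgtp families may share reads.

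The IFNγ-type inflammatory list holds chemokines, death genes and surface ligands. Of its 17 members that reached the filter in all 6 libraries, 16 rose, with a median of 0.90. The other 5 tested, Cxcl9, Acod1, Fas, Il15 and Il15ra, passed it through the TNF libraries alone. Over all 22, 20 rose, and without the lymphotoxin control 16 of 23. Cxcl10, a ligand of CXCR3 on T cells, had 816, 1488 and 1938 CPM with TNF, against 179, 207 and 123 CPM in the controls. The lowest TNF library was above the highest control and each dose was above the last (3.07 ± 0.44, edgeR adjusted p = 0.0201), but the call was lost without any library other than that of 0.1 ng/ml. Its relative Cxcl9 had 1.94, 6.02 and 10.2 CPM with TNF and 0.12, 0.27 and 0.12 CPM in the controls, and its low level in controls makes the size uncertain (5.06 ± 1.08, edgeR adjusted p = 0.0357). The call was lost without any control or the 1 ng/ml library, and with the spread of all 4 durations. Cxcl11, the third ligand of CXCR3, had 9, 27 and 46 counts with TNF and 0 in each control. Its ratio was 25.1 with a floor of 3 counts over the controls, and its exact 95% counting interval began at 19.99. Tnfsf10, the death ligand TRAIL, rose by 2.80 ± 0.38 and Casp4, an inflammatory caspase, by 2.56 ± 0.38, and the calls held without any 1 library. Cd274, the checkpoint ligand PD-L1, had 91.0, 129 and 140 CPM with TNF and 33.6, 27.8 and 25.3 CPM in the controls. These groups did not overlap, and the call (2.06 ± 0.22, edgeR adjusted p = 0.00629) held without any 1 library. Acod1, the enzyme that makes itaconate, had 8.53, 23.7 and 38.8 CPM with TNF and 1.24, 0.67 and 0.62 CPM in the controls and missed the threshold in the comparison of 3 against 3 (4.79 ± 1.02, edgeR adjusted p = 0.0515), with the spread between doses in its error. Icam1, an adhesion protein, had 12 counts in the TNF libraries and 0 in the controls. Its ratio with the same floor was 3.68, and its counting interval began at 2.56.

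The MHC class I pathway rose in 19 of the 23 members that reached the filter in all 6 libraries, with a median of 0.94. Over all 25 tested, 21 rose, or 20 without the lymphotoxin control. H2-Q4, a class Ib heavy chain, had 120, 138 and 145 CPM with TNF, against 44, 48.6 and 39 CPM in the controls, 2 narrow groups far apart (1.63 ± 0.09, edgeR adjusted p = 8.65e-06). Tap2, a chain of the peptide transporter, had 51.5, 66.1 and 66.5 CPM with TNF and 19.8, 24.0 and 17.4 CPM in the controls (1.60 ± 0.14, edgeR adjusted p = 1.24e-04). Psmb9, a subunit of the immunoproteasome, rose by 1.51 ± 0.16 and Nlrc5, the transactivator of class I genes, by 1.27 ± 0.09. H2-K1, a classical heavy chain, had 746, 797 and 830 CPM with TNF and 455, 498 and 403 CPM in the controls (0.82 ± 0.08, edgeR adjusted p = 2.91e-04). These 5 calls held without any 1 library. B2m, the light chain, differed by less, at 1565, 1559 and 1659 CPM with TNF and 1393, 1369 and 1270 CPM in the controls, yet without overlap (0.25 ± 0.05, edgeR adjusted p = 0.0017). H2-Q6 and H2-Q7 rose by 2.38 ± 0.30 and 2.26 ± 0.50, both having passed the filter through the TNF libraries alone, and H2-Q genes are near copies of each other. The chaperones Calr, Canx and Pdia3, which serve all secreted proteins, had log2 changes of -0.14 ± 0.05, 0.00 ± 0.04 and -0.10 ± 0.05, none of them called. The class II genes H2-Aa, H2-Ab1 and H2-Eb1 had 0 counts in all 6 libraries.

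At 6 h the interferon genes as a whole reached more of their 10 ng/ml difference at the lowest dose than the NF-κB targets did. Among members with a log2 difference of at least 0.5 at 10 ng/ml, the difference at 0.1 ng/ml was a median 77.2% of that at 10 ng/ml for 151 interferon genes (quartiles 68.3 and 82.5%) and 44.4% for 26 NF-κB targets (27 and 51.1%). Over the members that reached the filter in all 6 libraries, the shares were 77.3% for 138 interferon genes and 42.1% for 24 NF-κB targets. Against the unstimulated and IL-2 controls alone, they were 74.4% and 43%. These shares are descriptions, with no test of the difference between the lists, and were not made for other durations. By list the median share ran from 61.6% for 19 IFNγ-type targets to 78.9% for 20 MHC class I genes. The 1 receptor chain with such a difference was at 27.7%. The median log2 differences of all 193 interferon genes were 0.82, 0.96 and 1.06 at 0.1, 1 and 10 ng/ml, and those of 33 NF-κB targets 0.42, 0.90 and 1.21. With the members that passed the filter through the TNF libraries alone left out, they were 0.79, 0.93 and 1.01 for 179 interferon genes and 0.35, 0.75 and 0.86 for 31 NF-κB targets. Nfkbia, which encodes IκBα, had 29.99, 69.1 and 109 CPM with TNF and 15.7, 19.3 and 19.1 CPM in the controls. Tnfaip3, the feedback enzyme A20, had 58.6, 110 and 173 CPM with TNF and 50.7, 57.1 and 49.8 CPM in the controls. At 0.1 ng/ml Nfkbia was clear of its highest control, and Tnfaip3 was close to it. In the comparison of 3 against 3, 13 of 33 NF-κB targets were higher, 11 of them among the 31 that reached the filter in all 6 libraries. Without the lymphotoxin control 5 of 33 were higher, and 3 of the 13 calls held whichever library was left out.

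**Figure D3:**
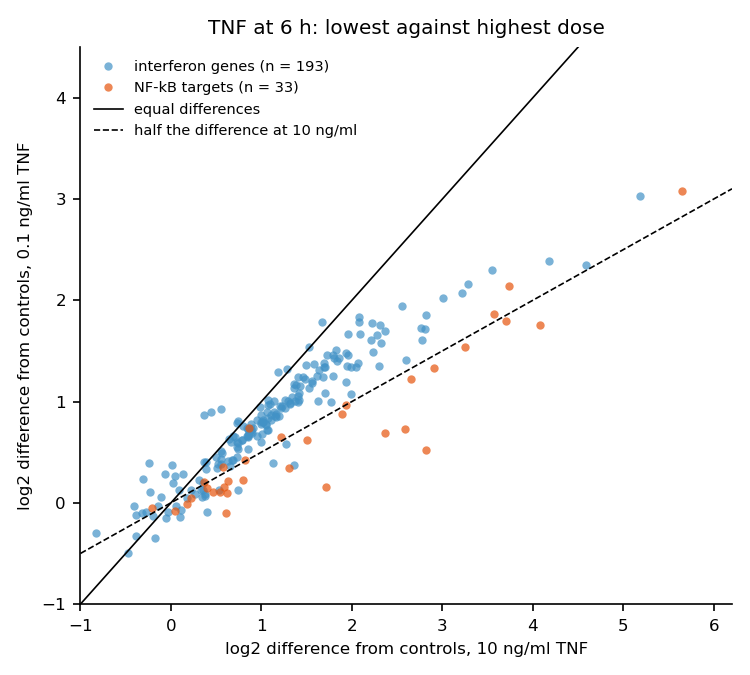
Log2 difference from the mean of the 3 controls at 6 h with 0.1 ng/ml TNF (vertical axis) against that with 10 ng/ml TNF (horizontal axis) for 193 interferon genes and 33 NF-κB targets, 1 point per gene. The solid line marks equal differences and the dashed line a slope of 0.5, and most interferon genes lie between the lines while many NF-κB targets lie near or under the dashed one.

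The slope over the TNF doses, beside the step from control, was called for 13 interferon genes upward and 2 downward of 193, and for 19 of 33 NF-κB targets upward. Of all 11456 genes, 1.71% were called upward, 1.6% downward and 3.31% in either direction. The lists here hold 14 interferon genes and 2 NF-κB targets that passed the filter through the TNF libraries alone. No count of dose calls was made without them. The upward interferon genes include Ifngr2, Irf1, Irf5, Tlr2, Slfn2, Ccl5, Cxcl9 and Acod1, and the downward ones are Irf2bp2 and H2-T23. Ccl5, a chemokine for T cells, had 29.7, 47.5 and 57.9 CPM with TNF and 12.1, 10.9 and 11.6 CPM in the controls, with a slope of 0.46 ± 0.07 log2 per 10-fold dose (edgeR adjusted p = 1.58e-04). Acod1 had a slope of 1.00 ± 0.10 (edgeR adjusted p = 3.20e-06), the only interferon call of this kind that held without any 1 library, in a gene that passed the filter through the TNF libraries alone. The interferon count was 1 without the 0.1 ng/ml library and 49 without the lymphotoxin control, so that a missing call does not show a level response. The dose score from controls to 10 ng/ml was called upward for 87 of 193 interferon genes and downward for 6, and for 28 of 33 NF-κB targets upward and 1 downward, against 11.2% and 10.4% of all genes. Those 93 interferon calls numbered 47, 56 and 55 without the unstimulated, the IL-2 or the 1 ng/ml library. With log2 of 1 plus the dose in place of the score, 2 interferon genes were called.

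At 2 h the interferon genes had small median differences from the controls, and the test of the difference between 6 h and 2 h took this up gene by gene. Of 195 tested, 79 had a larger change at 6 h and 1 a smaller one, against 2.3% and 1.02% of all 11709 genes and 3.32% in either direction, and 43 of the 80 calls held without any 1 of the 12 libraries. A gene could pass the filter over the 12 libraries through 1 group alone. Where that group was TNF at 6 h, a larger change at 6 h was favoured. No count was made without such members. None of 35 NF-κB targets was called, and an edgeR adjusted p over the threshold does not show that their changes were equal. The list medians at 0.1, 1 and 10 ng/ml were 0.27, 0.13 and 0.20 at 2 h for the 193 interferon genes tested at 6 h. For the 33 NF-κB targets tested at 6 h they were 0.96, 1.29 and 1.24. With the spread taken from all 4 durations the count of interferon calls was 17. It was 47, 51, 50 and 52 without the IL-2, lymphotoxin, 1 ng/ml or 10 ng/ml library of 2 h, and 49 without the 1 ng/ml library of 6 h.

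**Figure D4:**
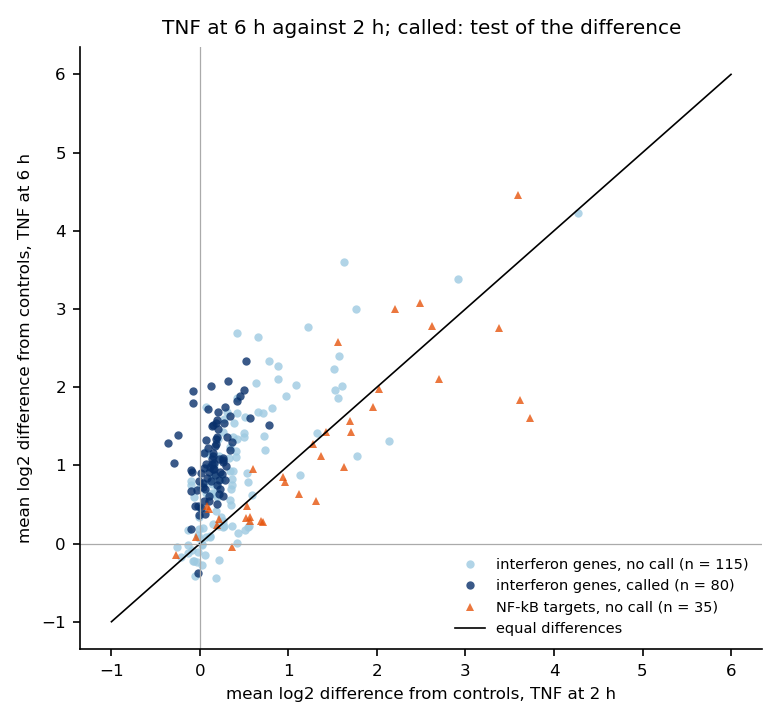
Mean log2 difference of the 3 TNF libraries from the mean of the 3 controls at 6 h (vertical axis) against that at 2 h (horizontal axis), 1 point per gene. Dark points are the 80 interferon genes called in the test of the difference. The test picks genes whose changes at 2 h and 6 h differ, so that their place off the line of equal differences is built in. Orange triangles are 35 NF-κB targets, which spread along both axes.

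By list, the change was larger at 6 h for 30 of 60 antiviral effectors, 15 of 24 genes of ISG15 conjugation, TRIM and PARP, 12 of 25 of MHC class I presentation, 10 of 21 GTPases, 6 of 18 sensors, 5 of 22 of the IFNγ-type list and 2 of 12 of JAK-STAT signalling. No receptor and no interferon regulatory factor was called. These list counts carry the same limit of the filter, and Sp110, which passed it at 6 h through the TNF libraries alone, is among the 15. Ifit2 had 277, 237 and 273 CPM with TNF at 2 h, against 211, 227 and 194 CPM in its controls, with all TNF libraries just above them. Its change at 6 h was larger by 1.76 ± 0.27 (edgeR adjusted p = 0.011). Tap2 had 27.4, 25.2 and 24.1 CPM with TNF at 2 h and 25.8, 20.7 and 21 CPM in the controls, which overlap, and the difference from its 6 h change was 1.41 ± 0.18 (edgeR adjusted p = 2.76e-04). Irf1 behaved otherwise, with 51.1, 67.5 and 109 CPM with TNF at 2 h, against 26.5, 31.6 and 28 CPM in the controls, and a difference between durations of 0.03 ± 0.44 (edgeR adjusted p = 0.986). Ifngr2 was also already higher at 2 h, with 69.4, 77.5 and 79.4 CPM with TNF and 35.4, 38 and 29.9 CPM in the controls, and its difference was -0.20 ± 0.33 (edgeR adjusted p = 0.864). Cxcl10 lay between these patterns, at 408, 424 and 626 CPM with TNF at 2 h and 148, 142 and 131 CPM in the controls, with a difference of 1.27 ± 0.48 (edgeR adjusted p = 0.259).

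At later durations the interferon genes were set against the controls of the same duration, with no test between durations. The members are the 193 tested at 6 h, of which 14 passed the filter through the TNF libraries of 6 h alone, a choice that favours 6 h. The median differences of the 193 at 0.1, 1 and 10 ng/ml were 0.29, 0.49 and 0.75 at 12 h and 0.28, 0.67 and 1.07 at 24 h. The lowest dose thus had its highest median at 6 h, with 0.27, 0.82, 0.29 and 0.28 over 2, 6, 12 and 24 h, while the highest dose was at 0.20, 1.06, 0.75 and 1.07. Ifit3 showed this order, with log2 differences at 0.1 ng/ml of 1.43 at 6 h, 0.48 at 12 h and 0.52 at 24 h, and at 10 ng/ml of 1.80, 1.28 and 1.90. The medians of the controls about their own mean ran from -0.22 to 0.15 at 6 h. The NF-κB targets at 0.1 ng/ml had medians of 0.96, 0.42, 0.24 and 0.21 over the 4 durations.

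**Figure D5:**
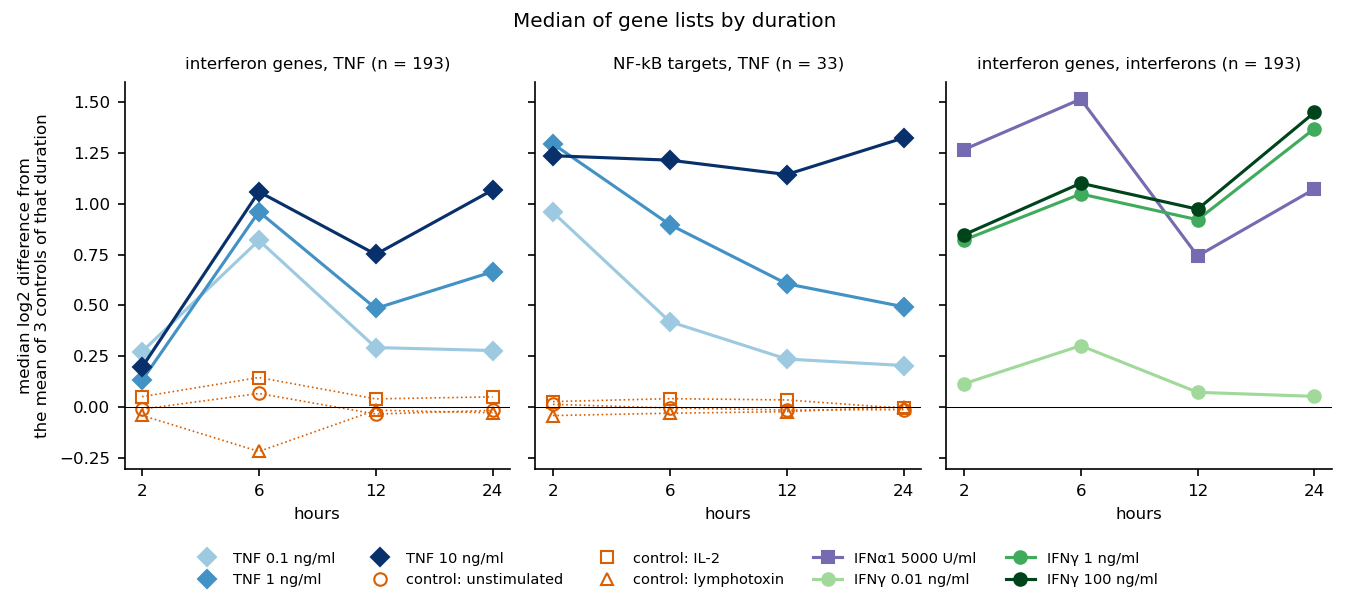
Median log2 difference from the mean of the 3 controls of the same duration (vertical axis) at 2, 6, 12 and 24 h (equally spaced), for 193 interferon genes with TNF (left) and with IFNα1 or IFNγ (right) and for 33 NF-κB targets with TNF (middle), 1 library per point. The interferon genes reach 0.82 to 1.06 at 6 h with TNF, and the lymphotoxin control lies lowest at 6 h at -0.22. The genes are those tested in the TNF and control libraries of 6 h, and 14 of the 193 passed the filter through those TNF libraries alone.

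The interferons themselves, measured at 6 h against the same 3 controls with 1 library per condition and no test, give a scale for these values. The comparisons share their controls and are set side by side only. The members are those tested in the TNF and control libraries, so that members reaching the filter only with an interferon are left out. The median of the 193 interferon genes was 0.82, 0.96 and 1.06 with TNF at 0.1, 1 and 10 ng/ml, 1.51 with IFNα1 and 0.30, 1.05 and 1.10 with IFNγ at 0.01, 1 and 100 ng/ml. Of the 193, 14 passed through the TNF libraries alone, which favours TNF. Over the other 179 the TNF medians were 0.79, 0.93 and 1.01, and no interferon medians were made over them. For the GTPases the medians were 1.25, 1.58 and 1.64 with TNF, 2.38 with IFNα1 and 0.91, 3.05 and 3.27 with IFNγ. For MHC class I presentation they were 0.94, 0.99 and 1.18 with TNF, 1.66 with IFNα1 and 0.53, 1.28 and 1.31 with IFNγ. The order of the stimuli differed between lists and between single genes. Irf1 was at 1.08, 1.44 and 1.71 with TNF, 2.08 with IFNα1 and 4.25 with 100 ng/ml IFNγ. Ccl5 was at 1.35, 2.02 and 2.30 with TNF, 0.22 with IFNα1 and -0.23 with 100 ng/ml IFNγ. Ifngr2 was at 0.38, 0.90 and 1.36 with TNF, -0.16 with IFNα1 and -0.18 with 100 ng/ml IFNγ. Irf8, a factor of IFNγ responses, was at -0.30, -0.21 and -0.82 with TNF, 0.23 with IFNα1 and 3.75 with 100 ng/ml IFNγ. H2-K1 was at 0.73, 0.82 and 0.88 with TNF, 0.90 with IFNα1 and 0.54 with 100 ng/ml IFNγ.

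Outside the lists, the largest called increases were in Cxcl16, Ccl9, Slc2a6, Slfn4 and Trim30c and the largest decreases in Pknox2, Nyap1, Cd248, Aph1b and Gnao1. None of these genes reached the filter on low counts in every library of its lower group. Each passed through its higher group alone, so that the filter favoured its direction and the size of its change is uncertain. Cxcl16, a chemokine for CXCR6, had 16, 21 and 45 counts with TNF and 1, 2 and 0 in the controls. Slfn4, a Schlafen gene, and Trim30c, a TRIM gene, are relatives of listed interferon genes, with log2 changes of 3.35 and 3.18. Pknox2, a homeobox gene, had 5, 3 and 0 counts with TNF and 13, 10 and 17 in the controls.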

How the data were processed

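Libraries were made with a kit that keeps strand, per the labels' protocols. The deposited values are raw counts per gene, whole numbers not normalized. Per the submitters' processing notes HISAT and the build GRCm38 were used. Not given in the sources used here are the HISAT version, the counter, its strand setting and the annotation. The counts were fitted with edgeR 4.0.16 (R 4.3.3): filterByExpr with a minimum count of 10 and a minimum total of 15, TMM scaling, robust quasi-likelihood tests, 2-sided, and Benjamini-Hochberg adjustment over all genes tested, with a threshold of 0.05. CPM used TMM factors over all 48 libraries, and CPM is not per length, so that levels of different genes are not compared. Log2 differences of single libraries used a prior count of 2 and the mean of the 3 controls of the same duration. Fitted log2 changes carry an SE taken as the change divided by the square root of F, an approximation.

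The tests were TNF against control at 6 h (4 residual degrees of freedom), a score of dose from 0 for controls to 3 for 10 ng/ml (4), the change at 6 h minus that at 2 h over 12 libraries (8), and a slope over the TNF doses (3), which was added after the data were seen. Members and lists were chosen with earlier results of these data known. Genes were named by a rule: all ligands, receptors and IRFs tested, the 5 largest calls of each other list, members called in the dose score or the difference between durations, members with no call, NF-κB targets, and the 5 largest called increases and decreases outside the lists. A few genes that the rule names are not reported here. Isg15 and H2-T23 fall outside it and were chosen after their values were seen. Melanocyte, macrophage, T cell and fibroblast markers were summed in CPM. DESeq2 1.42.0 and other filters, scalings and spreads were tried, and the edgeR tests were checked on simulated data. No 2 libraries of a group agreed within sampling noise. Promoters are RefSeq's on GRCm38.p6, and no gene coordinates from the counting annotation are printed.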

Additional observations from a re-analysis of the deposited data

Results flagged for a closer look

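The change with TNF at 6 h differed from that at 2 h, by the test of the difference itself, for 80 of 195 interferon genes (edgeR adjusted p under 0.05). Of all 11709 genes, 3.32% were called. With the spread of all 4 durations, 17 interferon genes were called. The limit given above, that a gene could pass the filter through 1 group alone, holds for these counts. Of the 80 calls, 43 held whichever of the 12 libraries was left out. Of those called whichever of the 12 libraries was left out, 3 with large differences are given, with the 1 decrease among the 80. Gm12185, an interferon-inducible GTPase, had a change larger by 1.99 on the log2 scale at 6 h, with 7.89, 12.1 and 12.1 CPM at 0.1, 1 and 10 ng/ml TNF and 2.72, 2.55 and 2.00 CPM in the controls at that time. Ifit2 differed by 1.76 and Tap2 by 1.41. Tlr4 had the only called difference downward, -0.36, with an edgeR adjusted p of 0.0408, a call lost without any of 10 of the 12 libraries.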

How the results depend on the processing

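No paired analysis was possible because the labels give no replicate numbers and, within 6 h, doses and control stimuli have no partners. Between 6 h and 2 h the libraries of 1 stimulus are partners, and a block for the stimulus gave 453 genes and 94 interferon genes for the difference between durations. Under the other scalings, filters, spreads and DESeq2, the interferon calls of TNF against control at 6 h numbered 143 to 161 around 154, and those of all genes 1191 to 2136 around 1719. Directions were checked for a set of named genes, in every test but the dose score. Among these genes no called direction was reversed. Changes near 0 that were not called, such as those of Irf3, Irf2bp1, Irf2bpl and Ifnar2, took either sign. With the spread of all 4 durations Ikbke and H2-Q7 were among the calls lost. With 1 library left out in turn, TNF against control gave 858 to 2673 genes and 107 to 159 interferon genes. The dose score gave 1719 to 2454 around 2472 and 47 to 121 around 93, the difference between 6 h and 2 h 235 to 667 around 389 and 47 to 103 around 80, and the slope 58 to 453 around 379 and 1 to 49 around 15. DESeq2 gave 1546 genes and 157 interferon genes for the dose score and 106 and 7 for the slope. Log2 of 1 plus the dose gave 204 and 2 for the score and 191 and 7 for the slope. Without robust dispersion the score called 166 interferon genes and the slope 240 genes. With no filter the difference between durations called 602 genes and the slope 37 interferon genes. With the spread of all 4 durations the score called 167 interferon genes, the difference between durations 115 genes and 17 interferon genes, and the slope 25 interferon genes. The cause of these shifts was not tested. With 3 libraries a side and 7136822 to 9558085 counts each, genes under about 1 CPM could not be tested.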

Other observations

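Some interferon genes too low to test had reads mainly in the TNF libraries, and the untested members were not counted by direction. Slfn1, a Schlafen gene, had 15 counts in the TNF libraries and 0 in the controls at 6 h. Its ratio was 4.60 with a floor of 3 counts over the controls, and its exact 95% counting interval began at 3.30. Serpina3g, a protease inhibitor, had 6 counts with TNF and 0 in the controls, a ratio of 1.84 with the same floor and an interval from 1.08. Nos2, the inducible nitric oxide synthase, had 5 counts with TNF and 1 in the controls, a ratio of 4.60 with an exact 95% counting interval of 0.515 to 218. Intervals also included no change for C1s1, with 11 counts and 3 (0.891 to 18.8), and C3, with 5 and 2 (0.376 to 24.1). Serpina3f and Cfb, each with 4 counts and 0, had intervals from 0.607.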
